A study of Homo sapiens with 19 samples.

Results

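The genes described here code for the enzymes that hydroxylate proline and lysine in new collagen chains: the prolyl 4-hydroxylase subunits P4HA1, P4HA2 and P4HB and the lysyl hydroxylases PLOD1, PLOD2 and PLOD3. They were taken by gene name alone, 6 of 31033 gene names on the array, with no value in the rule itself, though with earlier results of these data known. All 6 were on the array with 10 probes in all, and the brightest probe of each was well above background on all 19 arrays and never saturated. Differentiated macrophage-like cells thus had signal for every one of these genes, with and without vit C.

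RNA came from THP-1, a human monocytic leukaemia line, and from no other cell source, so every value belongs to 1 line. All cells, the untreated (UT) ones included, were first turned into adherent macrophage-like cells with 30 nM PMA and rested. UT flasks then had no further addition, while vit C flasks had 0.1 mM vit C, and flasks of both kinds were harvested 8, 24, 48 and 96 h later. In this order of times UT cells had 2, 3, 2 and 3 arrays, whereas the vit C flasks gave 3, 2, 2 and 2, each array being 1 flask. Since the flasks hold 1 line, p-values measure the spread between flasks. The question put to these genes was whether the level of the enzymes' mRNA moved when their cofactor was supplied.

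In the endoplasmic reticulum these enzymes modify collagen chains before the triple helix folds, using oxygen, iron and oxoglutarate, and ascorbate keeps their iron in the reduced state. Hydroxyproline lets the triple helix hold together at body temperature, and hydroxylysine carries sugars and forms the cross-links between molecules. Macrophages make little fibrillar collagen, but they make proteins with collagen-like stretches, such as complement C1q and scavenger receptors, which undergo the same hydroxylation.

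Levels are given as log2 of the scanner's processed signal minus the 75th percentile of that array, so a value of 0 is the level of a probe at the 75th percentile. Since probes bind with different strength, no level of 1 gene is set against that of another. A gene has the value of its brightest probe. Differences were tested with limma, with all 19 arrays and 8 group means fitted jointly, and q is the Benjamini-Hochberg adjusted p over all 50238 probes. A gene was called where its level changed by 1 log2 unit or more and q did not exceed 0.05, as in the methods.

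Per array, the 75th percentile used for scaling ran from 290.2 to 903.5 signal units, highest on the vit C arrays of 96 h, and 57.5% to 72.8% of probes were well above background. There were 4 slides: 8 UT arrays made up the first, 2 UT arrays of 96 h and 6 vit C arrays of 8, 24 and 48 h the second, 1 vit C array of 48 h the third, and the 2 vit C arrays of 96 h the fourth, which was scanned on another day. Treatment and slide therefore largely coincided, and at 96 h treatment, slide and scan day cannot be told apart. UT 96 h replicate 3 stood apart, with a median r of 0.965 across probes with the other arrays of its group, the lowest of the 19. Of 11 macrophage markers 10 were well above background on all arrays. Of 9 fibroblast markers 4 were (THY1, PDGFRA, PDGFRB and FAP), DCN was on 14 arrays, COL1A1 on 5, LUM on 4 and COL3A1 on 2, and COL1A2, a chain of the main fibroblast collagen, was on none. In RNA from whole cultures, fewer cells of a type and less RNA per cell cannot be told apart.

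PLOD2, the lysyl hydroxylase of the collagen telopeptides, was the member that varied most, and it was read by 3 probes. The first 30 of the 60 bases of each are shown in lower case, 5′ to 3′, because the change of PLOD2 with time was read separately by each of them.
PLOD2 probe 1: aggaaaacaaagttgttgagccttgcttct
PLOD2 probe 2: ggggggagggttatttgcttttttatcttc
PLOD2 probe 3: ttgggtgaatgactggcatgaacacgtctt
The 3 probes moved together over the 19 arrays, with r of 0.986 to 0.992 between pairs. P4HA2 and P4HB each had a pair of probes that ran less closely, with r of 0.66 and 0.77. These are descriptions over arrays that share slides and times. The brightest probe of both genes holds the letters AATAAA, the polyadenylation signal found near the end of most transcripts, as 2 of the 10 probes do. The probes were not placed on transcripts here. The 30 bases around these letters are shown with the signal in capitals, because the gap to the other probe of the same gene varied between arrays. It was widest on UT 96 h replicate 3 for both genes, at 4.41 for P4HA2 (median 2.78) and 2.88 for P4HB (median 1.28). On vit C 24 h replicate 2 it was 3.81 and 1.82, and both vit C arrays of 96 h were also above the median, at 3.64 and 3.46 for P4HA2 and 1.82 and 1.55 for P4HB.
P4HA2 probe 1: gctttaccaaaaAATAAAatgtccctacca
P4HB probe 1: acacattggccaAATAAAgttgaaattttc

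On the RefSeq annotation of GRCh38.p14, P4HA1 lies at chr10:73007217-73096866, P4HA2 at chr5:132190147-132227853, P4HB at chr17:81843166-81860535, PLOD1 at chr1:11934717-11975537, PLOD2 at chr3:146069440-146161184 and PLOD3 at chr7:101205984-101217581. P4HA1 and PLOD2 are known as targets of the hypoxia-inducible factor HIF-1, whose own hydroxylases also use ascorbate. The 250 bases before the start that the RefSeq promoter table uses were searched for each gene on both strands for ACGTG and GCGTG, the core letters of a HIF binding site. ACGTG is also part of the E-box CACGTG. The windows of PLOD2, chr3:146161185-146161434 on the minus strand, and P4HA1, chr10:73096867-73097116 on the minus strand, are shown because these genes changed most with time in vit C-treated cells. Capitals mark a match on either strand, so CACGT is ACGTG on the opposite strand.
PLOD2 promoter: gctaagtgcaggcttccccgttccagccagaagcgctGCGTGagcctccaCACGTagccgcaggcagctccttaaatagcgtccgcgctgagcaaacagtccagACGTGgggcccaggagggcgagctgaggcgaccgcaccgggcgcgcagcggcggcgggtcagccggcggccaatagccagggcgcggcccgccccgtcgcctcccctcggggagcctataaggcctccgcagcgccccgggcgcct
P4HA1 promoter: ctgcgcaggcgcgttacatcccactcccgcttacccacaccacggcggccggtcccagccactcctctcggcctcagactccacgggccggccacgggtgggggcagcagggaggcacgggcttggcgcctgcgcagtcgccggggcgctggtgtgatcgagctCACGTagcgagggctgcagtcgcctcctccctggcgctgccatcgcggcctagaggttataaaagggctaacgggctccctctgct
PLOD2 held ACGTG at 200 and 146 bases before the start and GCGTG at 213, and P4HA1 held ACGTG at 86. PLOD1 had 2 matches to GCGTG and P4HB 1, and the window of PLOD3 held neither. For P4HA2 the table's window, chr5:132227092-132227341, lies inside the gene span given above and not before its outermost start, so what it holds is not read here. Over 35116 RefSeq promoters of this length 18.5% held ACGTG, 32.2% held GCGTG and 43.2% held either, so a match is common and is a description of letters only.

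**Figure D1:**
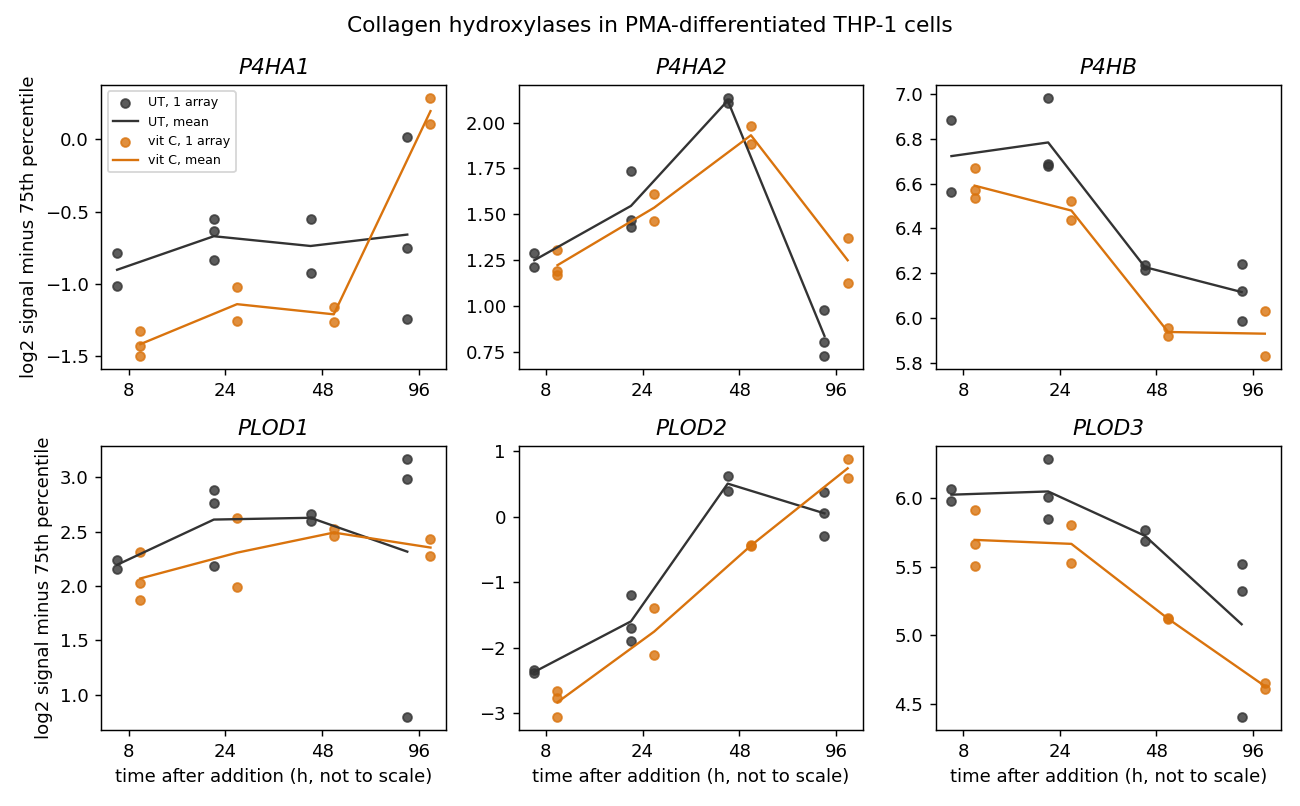
Level of each gene (log2 processed signal minus the 75th percentile of the array) against time, with 1 point per array in UT cells (black) and vit C-treated cells (orange) and lines through group means. PLOD2 climbs up to 48 h in both and on to 96 h with vit C, P4HB and PLOD3 end below their 8 h mean, and P4HA1 of vit C-treated cells moves from below the UT mean at 48 h to its highest mean at 96 h.

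The prolyl 4-hydroxylase is built of catalytic alpha subunits, P4HA1 or P4HA2, and the beta subunit P4HB, a protein disulfide isomerase that keeps the enzyme soluble and in the endoplasmic reticulum. P4HA1 in UT cells was at -0.79 and -1.02 at 8 h, at -0.55, -0.63 and -0.83 at 24 h, at -0.92 and -0.55 at 48 h, and at -0.75, -1.24 and 0.02 at 96 h. Treated cells gave -1.32, -1.50 and -1.43 at 8 h, then -1.26 and -1.02, then -1.26 and -1.16, and finally 0.29 and 0.10 at 96 h. Every vit C array lay below every UT array of its time at 8, 24 and 48 h, and above every one at 96 h. The log2 fold change of P4HA1 was -0.52 at 8 h (SE 0.28, q 0.541), -0.47 at 24 h (q 0.386), -0.47 at 48 h (q 0.583) and 0.86 at 96 h (SE 0.28, q 0.0630, 1.81-fold), none of which was called. That P4HA1 was not called at 96 h rested on UT 96 h replicate 3, the UT array nearest to the vit C arrays. Without this array the difference was 1.19 with q 0.0042, past both thresholds.

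P4HA2, the other alpha subunit, ran through a peak at 48 h in both kinds of cells. UT cells were at 1.21 and 1.29 at 8 h, at 1.74, 1.43 and 1.47 at 24 h, at 2.13 and 2.11 at 48 h, and at 0.72, 0.80 and 0.98 at 96 h. Cells with vit C were at 1.17, 1.31 and 1.19 at 8 h, at 1.46 and 1.61 at 24 h, at 1.88 and 1.98 at 48 h, and at 1.37 and 1.12 at 96 h. The treated arrays overlapped the UT arrays at 8 and 24 h, lay just below them at 48 h and above them at 96 h. The differences were -0.03, -0.01, -0.19 and 0.41 on the log2 scale at 8, 24, 48 and 96 h, with 95% intervals of -0.39 to 0.33 at 8 h and 0.05 to 0.77 at 96 h (q 0.129), and none was called. The second probe of P4HA2 gave 0.12 at 96 h.

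P4HB ranged over 1.16 log2 units across all arrays, the narrowest range among these genes. It lay at 6.56 and 6.88 in UT cells and 6.53, 6.57 and 6.67 in vit C-treated cells at 8 h, and at 5.99, 6.24 and 6.12 against 6.03 and 5.83 at 96 h. At 24 and 48 h it ran from 6.22 to 6.98 in UT cells and from 5.92 to 6.52 in vit C-treated cells. The highest group means were those of the first day and the lowest those of 48 and 96 h, in both kinds of cells. The vit C minus UT difference was -0.13, -0.30, -0.29 and -0.19 at the 4 times, and averaged over them -0.23 on the log2 scale (SE 0.09, q 0.117). Its second probe gave -0.09, -0.74, -0.59 and -0.10, and -0.38 on average, and was not called either.

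The lysyl hydroxylases differ in the lysines they reach: PLOD1 acts on the helical part of the chain, PLOD2 on the telopeptides, and PLOD3 also adds sugars to hydroxylysine. PLOD2 in UT cells was at -2.39 and -2.35 at 8 h, at -1.20, -1.69 and -1.90 at 24 h, at 0.39 and 0.62 at 48 h, and at 0.06, -0.29 and 0.38 at 96 h. Treated cells gave -2.77, -3.06 and -2.67 at 8 h, then -2.12 and -1.39, then -0.44 and -0.44, and finally 0.88 and 0.59 at 96 h. The treated arrays were all below the UT arrays at 8 and 48 h, mixed with them at 24 h and all above them at 96 h. PLOD2 differed by -0.46 at 8 h (q 0.574), -0.16 at 24 h (q 0.787), -0.95 at 48 h (SE 0.30, q 0.126) and 0.69 at 96 h (SE 0.27, q 0.115) on the log2 scale, and was not called at any of them by its brightest probe. The other probes of PLOD2 passed at 96 h, with log2 fold changes of 1.00 (q 0.0473) for probe 2 and 1.19 (q 0.0448) for probe 3. Without UT 96 h replicate 3 the brightest probe was at 0.85 (q 0.0393), still short of the fold limit. At 48 h probes 2 and 3 gave -0.50 and -1.13, with q of 0.598 and 0.148. They were at -0.47 (q 0.616) and -1.17 (q 0.176) at 8 h, and at 0.12 (q 0.865) and -0.04 (q 0.966) at 24 h.

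PLOD3 was at 6.07 and 5.98 in UT cells at 8 h, at 5.85, 6.01 and 6.29 at 24 h, at 5.77 and 5.69 at 48 h, and at 5.32, 5.52 and 4.40 at 96 h. The treated cells were at 5.67, 5.51 and 5.92, then 5.80 and 5.53, then 5.12 and 5.12, and at 4.65 and 4.60 at 96 h. All treated arrays lay below the UT arrays up to 48 h, and at 96 h only UT replicate 3 lay below them. The differences were -0.33, -0.38, -0.61 and -0.45, and their average was -0.44 on the log2 scale (SE 0.14, q 0.0595), which missed both thresholds. Without UT 96 h replicate 3 the 96 h difference was -0.79 (q 0.0137) and the average -0.53 (q 0.0018), both short of the fold limit. PLOD1 was at 2.23 and 2.15, then 2.19, 2.77 and 2.88, then 2.66 and 2.60, and at 2.99, 3.17 and 0.79 in UT cells, while all treated arrays lay from 1.87 to 2.62. At 96 h its difference was 0.04 with all arrays and -0.73 (q 0.0568) without UT replicate 3, so that 1 array decided its direction.

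None of the 6 genes was called for vit C against UT at 8, 24, 48 or 96 h. At an unadjusted p under 0.05 and the same fold limit, the count was 0 at each time as well, and the methods' t-test called 0. Among the 17292 gene names that were well above background on all arrays, the shares called in this order were 0.243%, 1.3%, 2.82% and 3.42%, and among all 31033 gene names 0.261%, 1.1%, 2.47% and 7.41%. At these shares a count of 0 in 6 does not set these genes apart from the array. All 6 had lower means with vit C at each of 8, 24 and 48 h, with median log2 differences of -0.23, -0.30 and -0.38, beside medians over the 17292 genes of -0.07, -0.01 and -0.08. The signs were mixed at 96 h, 4 positive and 2 negative, around a median of 0.23 beside -0.09. At 48 h the treated and UT arrays of all 6 did not overlap, as was so for 64.1% of the 17292 genes. At 8, 24 and 96 h they did not overlap for 3 genes, beside 47.7%, 32.6% and 30.9%. Averaged over the 4 times, 0 of 6 were called, with 2.11% of the 17292 genes called and 2.7% of all. With no fold limit, 0 members had q of at most 0.05 at 8, 24, 48 or 96 h, beside 0.272%, 1.73%, 3.54% and 6.84% of the 17292 genes (0.277%, 1.35%, 2.88% and 10.1% of all), and 0 on average over times, beside 13.8% and 11.8%. The 96 h count with no fold limit depends on UT 96 h replicate 3. Without it limma gave q of 0.0042 for P4HA1, 0.0462 for P4HA2, 0.0393 for PLOD2 and 0.0137 for PLOD3, and 0.0568 for PLOD1 and 0.475 for P4HB. The intervals leave room for changes: for PLOD2 at 48 h the 95% interval ran from -1.58 to -0.31, and for P4HA1 at 96 h from 0.25 to 1.46.

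**Figure D2:**
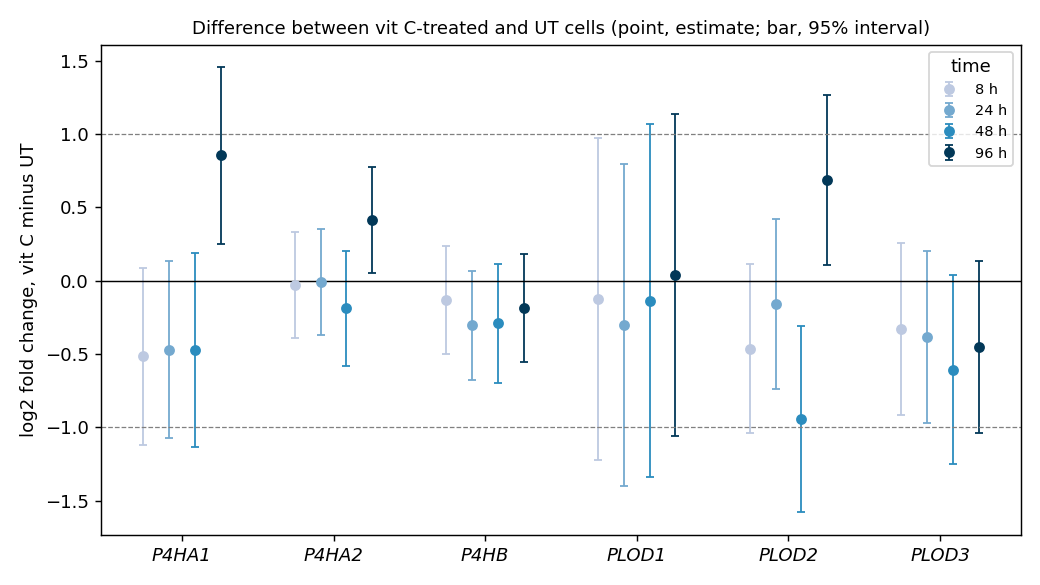
Log2 fold change of vit C-treated over UT cells for each gene at 8, 24, 48 and 96 h, as the estimate with its 95% interval from the limma fit, and dashed lines at a log2 fold change of 1 either way. All points of 8, 24 and 48 h lie below 0, and at 96 h the intervals of P4HA1, P4HA2 and PLOD2 lie above 0.

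For P4HA1, P4HA2 and PLOD2 the difference between treated and UT cells thus had 1 sign at 48 h and the other at 96 h on every array. Whether the vit C effect differed between times was tested with limma's F test over the 4 effects, which gave q of 0.165 for P4HA1, 0.408 for P4HA2 and 0.152 for PLOD2, and q between 0.949 and 0.988 for P4HB, PLOD1 and PLOD3. None of the 6 passed, beside 1.14% of the 17292 genes and 1.01% of all gene names, and at an unadjusted p of at most 0.05 P4HA1 and PLOD2 did. Without UT 96 h replicate 3 the q of P4HA1 was 0.0140. No slide held treated and UT cells of the same time, so no within-slide value of the vit C effect can be given. A fit with slide as a term was possible at 8, 24 and 48 h, where the step between slides was estimated from the UT arrays of 96 h, which lay on 2 slides, and it left 0 of 6 called. In that fit PLOD1 turned positive (0.88, 0.70 and 0.91 at 8, 24 and 48 h) and PLOD3 was at 0.031 at 8 h, while P4HA1, P4HA2, P4HB and PLOD2 stayed negative at these times. The step depends on UT 96 h replicate 3. The first slide minus the second was 1.01 for PLOD1 and 0.36 for PLOD3 with this array and -0.18 and -0.20 without it, so the turns of sign rest on it. Without it the step was 0.49 in place of -0.14 for P4HA1 and 0.36 in place of 0.017 for PLOD2. The unadjusted differences of these genes at 24 h were -0.47 and -0.16, so their negative signs in that fit depend on this array as well.

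Against 8 h, more of these genes were called than against UT cells, and PLOD2 was called most often. The same held over the array. At 96 h against 8 h, 15.2% of the 17292 genes were called in UT cells and 19.8% with vit C, beside 3.42% for vit C against UT at 96 h. In UT cells PLOD2 rose by 2.88 on the log2 scale from 8 to 48 h, 7.34-fold (SE 0.30), and was 2.42 above 8 h at 96 h, 5.36-fold (SE 0.27). In vit C-treated cells it rose by 1.08 at 24 h (2.11-fold, q 0.0327), by 2.39 at 48 h (5.25-fold) and by 3.57 at 96 h (11.9-fold, SE 0.27). The vit C arrays of 8 h were on the second slide and those of 96 h on the fourth, scanned on another day, so between these times time, slide and scan day cannot be told apart, and no within-slide value exists for any vit C array of 96 h. The 3 probes of PLOD2 ranged from 2.28 to 2.63 at 96 h in UT cells and from 3.57 to 4.64 in vit C-treated cells. The UT rise lay within 1 slide up to 48 h, and within that slide the 1 UT array of 96 h was 2.43 above 8 h. On the second slide the vit C rise was 1.08 at 24 h and 2.39 for the 1 array of 48 h. The call at 24 h in treated cells did not hold when any array of vit C 8 h was left out (q 0.0550 to 0.123) or vit C 24 h replicate 2 (0.72, q 0.372).

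P4HA1 rose between 8 and 96 h in vit C-treated cells, by 1.61 on the log2 scale or 3.06-fold (SE 0.28, q 0.0008), and was called, with time, slide and scan day coinciding here too. In UT cells the same step was 0.24 (q 0.631), and -0.10 without UT 96 h replicate 3. That 1 passed and the other did not is no test of their difference, for which the F test above is the measure. PLOD3 was called lower at 96 h than at 8 h in vit C-treated cells, across the same change of slide, at -1.07 (SE 0.27, q 0.0112), and in UT cells was -0.95 (q 0.0291), short of the fold limit. This UT value was -0.61 (q 0.0415) without UT 96 h replicate 3, and it was called without replicate 1 (-1.07) or replicate 2 (-1.17). The call of PLOD3 in treated cells was lost without vit C 8 h replicate 3 (-0.96) or without either array of 96 h (q 0.0507 and 0.0835). P4HB changed by -0.61 at 96 h in UT cells (q 0.0266) and by -0.66 in vit C-treated cells (q 0.0123), under the fold limit in both, and its second probe was at -1.18 in UT cells (q 0.0728) and -1.19 in treated cells (q 0.0429), where it was called. P4HA2 at 48 h was above 8 h by 0.87 in UT cells (q 0.0084) and 0.71 in vit C-treated cells (q 0.0108), also under the fold limit.

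**Figure D3:**
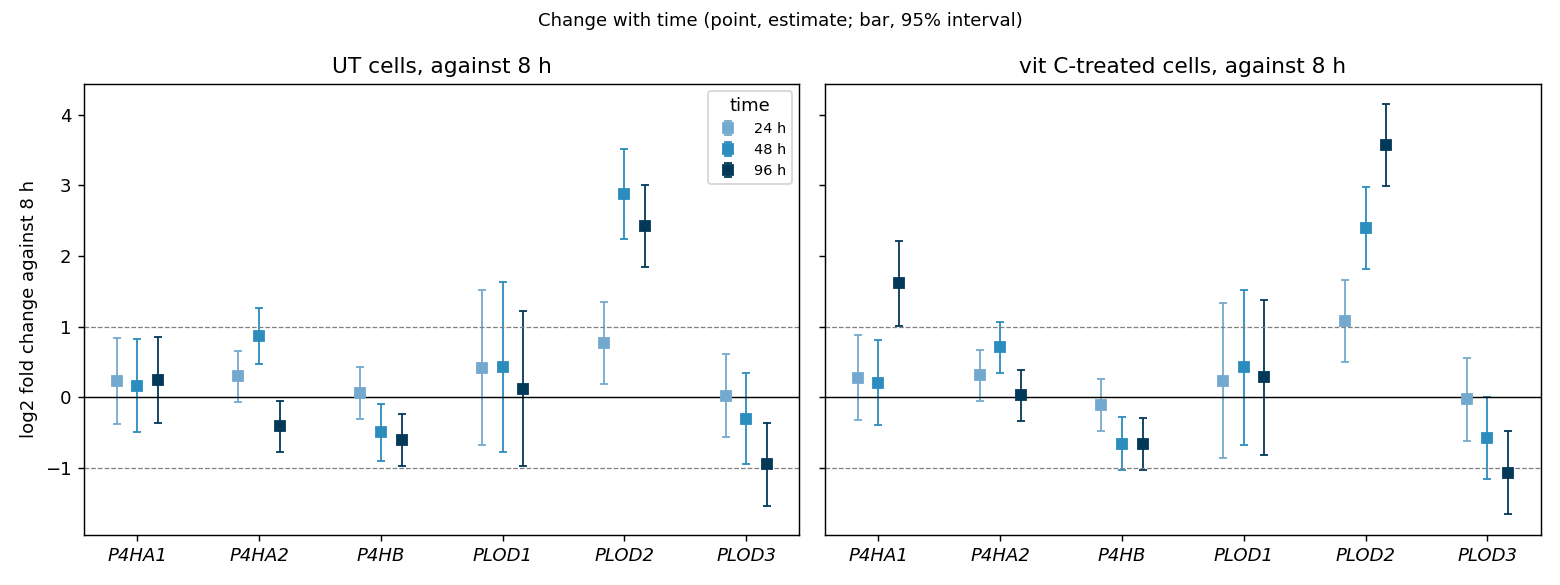
Log2 fold change against 8 h in UT cells (left) and vit C-treated cells (right) at 24, 48 and 96 h, as the estimate with its 95% interval from the limma fit, and dashed lines at a log2 fold change of 1 either way. PLOD2 stands above all other genes in both panels, and P4HA1 passes 1 at 96 h on the right only.

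By count, 0 of the 6 were called in UT cells at 24 h against 8 h, 1 at 48 h and 1 at 96 h, beside 2.34%, 8.54% and 15.2% of the 17292 genes (1.91%, 6.79% and 12.2% of all gene names). With vit C the counts were 1, 1 and 3, beside 5.04%, 12.1% and 19.8% (4.13%, 10.4% and 21.2%). With no fold limit and q of at most 0.05, UT cells gave 0, 2 and 3 members, beside 3.34%, 11.4% and 23.4% of the 17292 genes (2.49%, 8.41% and 17% of all). Treated cells gave 1, 3 and 4, beside 7.6%, 19.5% and 32.8% (5.6%, 14.7% and 30.6%). Over all 4 times together, limma's F test passed for 4 of 6 in UT cells (P4HA2, P4HB, PLOD2 and PLOD3), beside 32.5% of the 17292 genes and 23.9% of all. With vit C it passed for 5 of 6, the same genes and P4HA1, beside 38.2% and 34.4%. In UT cells 2 passed with slide as a fixed block, and in treated cells 2 passed without vit C 96 h replicate 2. PLOD1 passed in neither, with q of 0.858 and 0.892.

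The 5 proliferation markers moved with time as well. Their summed linear level, relative to the 75th percentile, was 6.56 to 7.01 in UT cells at 8 h, 5.64 to 5.92 at 24 h, 16.7 to 20.6 at 48 h and 47.6 to 71.9 at 96 h. Vit C arrays gave 6.10 to 6.71, 6.52 to 9.51, 26.6 to 30.2 and 52.8 to 53.7. All 5 were well above background on all arrays and called higher at 96 h against 8 h in both. Their part in the change of PLOD2, P4HA1 and PLOD3 with time was not tested. The summed level of the 11 macrophage markers was 493 to 548 in UT cells at 8 h and 471 to 511 at 96 h, and 425 to 512 and 504 to 543 in vit C-treated cells. Single markers moved within this sum. At 96 h against 8 h, 2 were called higher and 4 lower in UT cells, and 3 higher and 2 lower with vit C. Over all genes measured, 1937 were called higher and 1512 lower of 21215 in UT cells, and 2703 and 1989 of 22595 with vit C.

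Ordered by group mean, P4HA1 was highest in vit C-treated cells at 96 h (0.20 ± 0.13, SD, n = 2) and lowest in those at 8 h (-1.42 ± 0.09, n = 3). The arrays of neighbouring groups did not overlap in 3 of the 7 neighbour pairs of this order. PLOD2 ran from vit C at 96 h (0.74 ± 0.20, n = 2) down to vit C at 8 h (-2.83 ± 0.21, n = 3), a span of 3.57 on the log2 scale, with 5 of 7 neighbour pairs apart. P4HA2 was highest in UT cells at 48 h (2.12 ± 0.02, n = 2) and lowest in UT cells at 96 h (0.84 ± 0.13, n = 3), with 4 of 7 pairs apart. For P4HB and PLOD3 both 8 h and 24 h UT groups stood at the top and both 96 h groups in the lower part, with 3 and 2 of 7 pairs apart. PLOD1 had 1 pair of 7 apart, since its spread among UT 96 h arrays (SD 1.32, n = 3) exceeded the span of its group means, 0.56.

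UT 96 h replicate 3 bears on several of these values. Its P4HB probe 2 was at 3.24, against 4.71 and 5.09 on the other UT 96 h arrays, while probe 1, with AATAAA, was at 6.12 against 5.99 and 6.24. The gap between the P4HB probes was 2.88 on this array and at most 1.82 on any other. Likewise P4HA2 probe 2 was at -3.43 against -1.76 and -2.08, with a gap of 4.41 to probe 1 and at most 3.81 elsewhere. PLOD1 and PLOD3 were low on this array, at 0.79 and 4.40, and the 3 probes of PLOD2 were not. For P4HA2 and P4HB the low value thus appeared on the second probe and not on the probe that holds AATAAA, and what lay behind it was not tested.

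**Figure D4:**
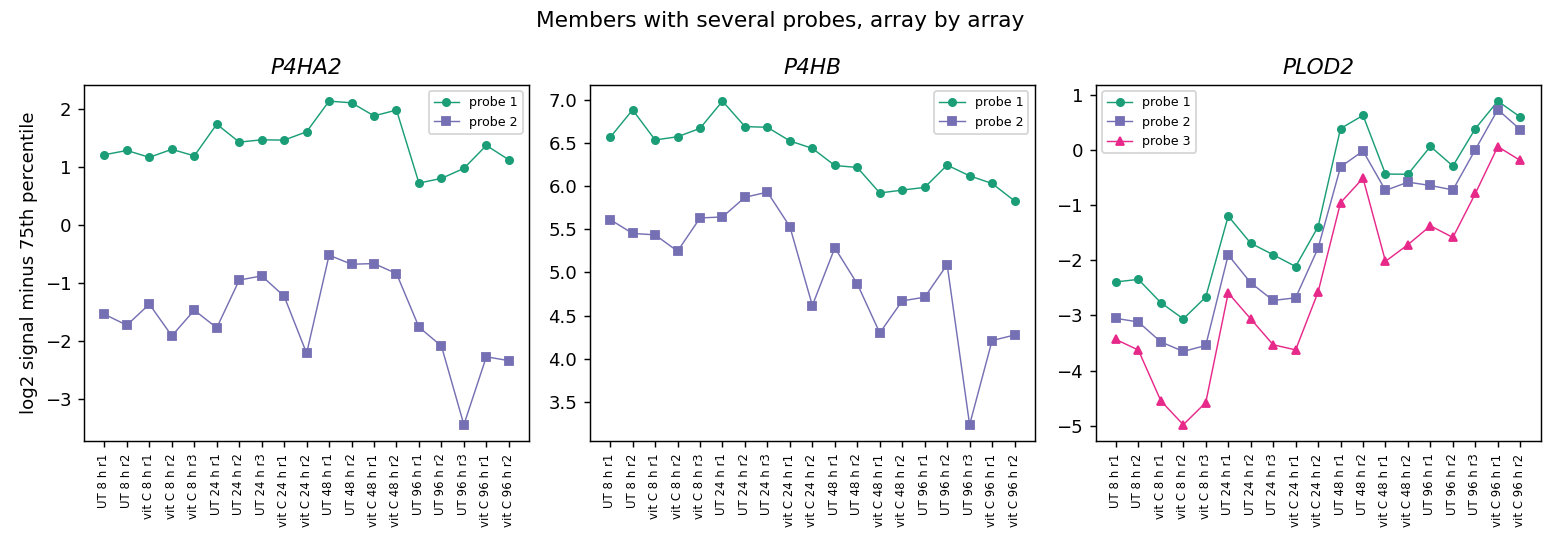
Level (log2 processed signal minus the 75th percentile of the array) of each probe of P4HA2, P4HB and PLOD2 on the 19 arrays, ordered by time and, within time, UT (r1 to r3, replicate number) before vit C. The 3 PLOD2 probes run in parallel, while probe 2 of P4HA2 and of P4HB drops on UT 96 h replicate 3 and probe 1 does not.

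Among themselves the genes fell into different patterns over the 8 group means. P4HB and PLOD3 were most alike (r 0.91), P4HA1 and PLOD2 had r of 0.68, and P4HB ran opposite to PLOD2 (r -0.83). The groups share times and slides, and these values describe 8 points only. Of 17291 other genes well above background on all arrays, the pattern most like PLOD2 over the 8 means was that of AMOTL2 (r 0.983), an angiomotin family protein, and then C12orf34, while the next has no gene symbol on the array and is not named. For P4HA1 it was ACBD5 (r 0.979), a peroxisomal acyl-CoA binding protein, and then, after a probe with no gene symbol, PELI1 (r 0.965). For PLOD3 it was GCS1 (r 0.997), a glucosidase that trims glycans in the endoplasmic reticulum, followed by JOSD2 and CLIP2. P4HB was most like ST3GAL5 (r 0.991), the GM3 ganglioside synthase, then PLEKHQ1 and C19orf23. P4HA2 was most like RPA4 (r 0.992), then SNORA75 and CABP7, and PLOD1 most like SCML1 (r 0.969), then SNTB2 and CHST2.

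The other genes of collagen biosynthesis were described by lists of chaperones, processing enzymes, chains and related proteins, and a gene counted as measured where all arrays of 1 compared group, or of both, had it well above background. Of the 17 chaperones and partner proteins on the array, 15 were measured at 8, 24 and 48 h, and none was called. At 96 h 1 of 17 was called, LEPREL1, a prolyl 3-hydroxylase of collagen, which was lower in vit C-treated cells, with a log2 fold change of -1.27 (SE 0.19, q 0.0017). The list medians were -0.04, 0.17, -0.03 and -0.01 at the 4 times, beside -0.09, -0.0057, -0.07 and -0.05 over all genes measured in this way, of which 41 were called higher and 31 lower of 21082 at 8 h, 186 and 119 of 20586 at 24 h, 380 and 306 of 20058 at 48 h, and 535 and 405 of 22473 at 96 h. Of the 14 enzymes of collagen processing and cross-linking, 9 or 10 were measured. LOXL4, a lysyl oxidase, was at -1.09 against UT at 24 h (q 0.0170) and -2.62 at 48 h (SE 0.21, q 4.3e-05), and LOXL2 was higher by 1.40 at 48 h (q 0.0322). ADAMTS14, a procollagen N-proteinase, was higher by 1.62 at 96 h (SE 0.24, q 0.0017), where 2 of 3 UT arrays were well above background.

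Of the 33 collagen chains on the array, 23 or 24 were measured at each time, and those called were higher in vit C-treated cells. COL16A1 was called at 48 h (q 0.0285), where no UT array was well above background, and was at least 2.39-fold higher against the lowest signal that was. At 96 h COL6A1 rose by 1.16 (SE 0.20, q 0.0049) and COL6A2 by 2.03 (SE 0.37, q 0.0068), chains of the same collagen VI molecule. None was called at 8 and 24 h. The list medians were -0.31, -0.12, 0.39 and 0.24. Of the 14 proteins with collagen-like domains made by macrophages, 8, 9, 9 and 13 were measured. MARCO, a scavenger receptor, was higher at 24 h (1.72, q 0.0043) and at 48 h (1.62, q 0.0064). At 96 h COLEC12 rose by 4.01 (SE 0.39, q 8.6e-05), C1QB, a chain of complement C1q, by 2.66 (q 0.0026) and FCN1 by 2.08 (q 0.0011), while the scavenger receptor MSR1 was lower (-1.07, q 0.0299). The chains and collagen-like proteins called at 96 h thus numbered 5 higher and 1 lower, and at this time slide and treatment cannot be told apart.

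For the disulfide enzymes of the endoplasmic reticulum, the family of P4HB, 14 of 15 were measured and 0 were called at any time, with medians of -0.38, -0.23, -0.15 and 0.37. Of 18 genes for chaperones of the endoplasmic reticulum and for the unfolded protein response 1 was called, DNAJC3, which rose by 1.01 at 96 h (q 0.0159). Of 23 HIF target genes, 19 to 21 were measured. ADM, adrenomedullin, was called lower at 3 times, at -1.26 (8 h, q 0.0240), -2.19 at 24 h (SE 0.21, q 0.0002) and -1.88 at 48 h (SE 0.23, q 0.0011), and at 96 h was at -0.69 (q 0.0484), short of the fold limit. DDIT4 was higher by 1.63 at 48 h (q 0.0131) and ALDOC by 1.54 at 96 h (q 0.0389). The list medians were -0.28, -0.04, -0.09 and 0.24. From 8 to 96 h, 8 HIF target genes were called higher and 1 lower of 21 in vit C-treated cells, and 2 and 2 of 21 in UT cells. Over all genes measured, 2703 were called higher and 1989 lower of 22595 in vit C-treated cells, and 1937 and 1512 of 21215 in UT cells. The difference between these counts was not tested. Over the 7 lists 1 of 109 genes was called at 8 h, 3 of 108 at 24 h, 6 of 108 at 48 h and 10 of 116 at 96 h. With limma fitted to the 2 compared groups alone 1, 1, 0 and 0 were called, and with the methods' t-test none. Without UT 48 h replicate 2 or vit C 48 h replicate 2 the 48 h count was 2 or 3, and without either vit C array of 96 h the 96 h count was 6. Without UT 96 h replicate 3 the 96 h count was 14, and DNAJC3 (0.89) and MSR1 (-0.83) were not among those called. LOXL2, COL16A1 and ALDOC were called in 10 of 19 alternative settings each, with lowest fitted values of 0.50, 0.39 and 1.11, and MSR1 in 9 of 19, with values from -1.23 to -0.83. ADAMTS14 was called in 14 of 18, with values from 0.41 to 1.86. None changed sign.

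**Figure D5:**
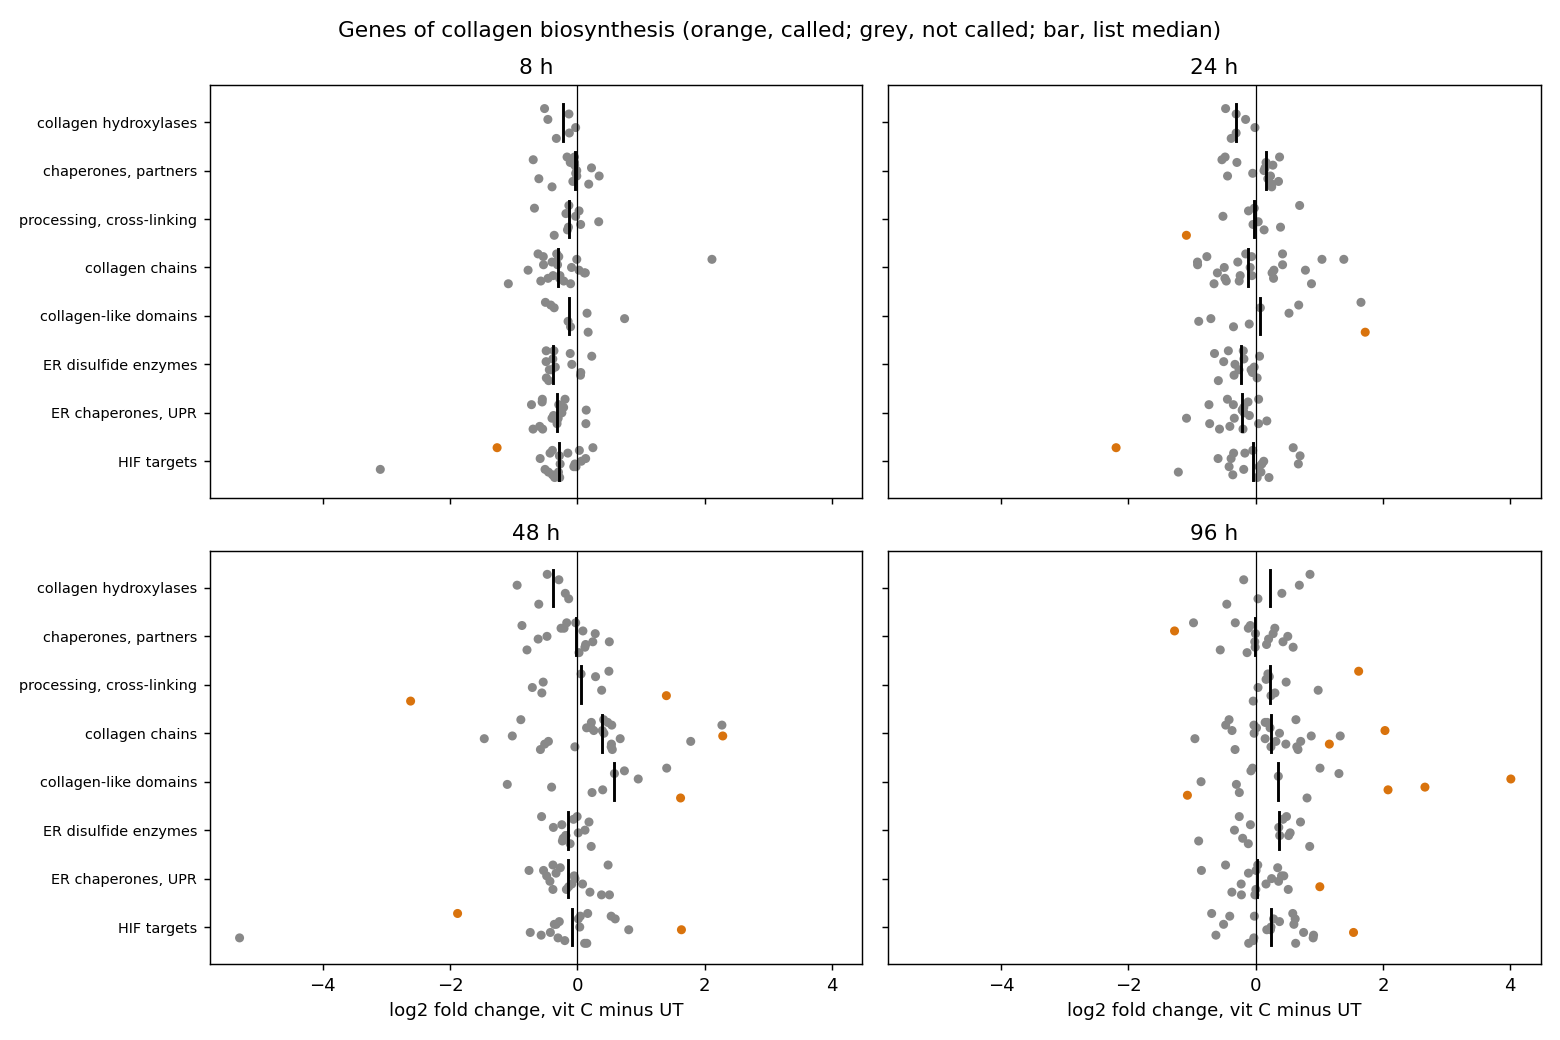
Log2 fold change of vit C-treated over UT cells for the measured genes of each list at 8, 24, 48 and 96 h, with 1 point per gene (orange, called; grey, not called) and a bar at the list median. COL16A1, the called chain at 48 h, is drawn at its fitted value, of which only a lower bound can be read. The collagen hydroxylases lie between -0.95 and 0.86 at all times, while called chains and collagen-like proteins reach 4.01 at 96 h.

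Fibroblast markers moved with vit C as well: of 9 on the array, 4 to 7 were measured, 1 was called higher at 24 h, 2 at 48 h, and 3 higher and 1 lower at 96 h. DCN, decorin, had the log2 fold changes 2.34 at 48 h (q 0.0111) and 2.48 at 96 h (q 0.0024), PDGFRB was called higher at 24 h (1.75) and at 96 h, FAP was lower at 96 h (-1.16), and LUM was called higher at 48 and 96 h with no UT array well above background. Their summed linear level was 21.9 to 22.4 in UT and 21.0 to 21.9 in vit C-treated cells at 48 h, and 9.92 to 13.6 and 10.2 to 11.0 at 96 h. Of the 11 macrophage markers 1 was called lower at 48 h and 2 higher at 96 h. The part of cell makeup in the change of the collagen chains was not tested.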

How the data were processed

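Microarrays of 19 THP-1 cultures were analysed, 10 of UT and 9 of vit C-treated cells. The deposited scanner files hold spot intensity that the authors extracted with Agilent Feature Extraction (version 10.5.1.1 in the file headers), background-corrected and not normalized between arrays. The deposited series matrix holds the authors' log2 values, used as an alternative only. Of 52857 spots per array, 51538 were not controls, and spots of 1 probe were averaged to 50238 probes. Spots flagged as outliers, 30 to 79 per array, were kept. Log2 processed signal minus the 75th percentile of the array was fitted with limma 3.58.1 in R 4.3.3 (8 group means, no covariate), and p-values were adjusted by Benjamini-Hochberg over all probes. The number of arrays limits the precision. Figures were drawn with matplotlib 3.10.9 in Python 3.11.15. The scripts were tested on simulated data.

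The members and lists were chosen with earlier results of these data known. Named were the 6 members, each list gene called for vit C against UT and measured (its brightest probe well above background on all arrays of 1 compared group or both), and the 3 genes most like each member in pattern (unnamed where the array gives no gene symbol). Tried as alternatives were quantile normalization, another percentile, normexp (offset 50), a fit of the 2 groups only, the methods' t-test, an intensity trend in eBayes, a floor of 20 units, a filter on dim probes, the mean of all probes, removal of genes with opposing probes, other thresholds, slide as a fixed or random block, a replicate block, array weights, the series matrix, and leaving out each array. Promoters, gene positions and names came from RefSeq (GRCh38.p14), and probe sequences from the deposited files.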

Additional observations from a re-analysis of the deposited data

Results flagged for a closer look

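In P4HA1, P4HA2 and PLOD2 every vit C array lay on 1 side of the UT arrays at an earlier time and on the other side at 96 h. In log2 fold change, P4HA1 went from -0.52 (8 h), -0.47 (24 h) and -0.47 (48 h) to 0.86 at 96 h. P4HA2 had -0.19 at 48 h and 0.41 at 96 h. PLOD2 had -0.46 at 8 h, -0.95 at 48 h and 0.69 at 96 h. Limma's F test of a vit C effect that differs between times gave q of 0.165, 0.408 and 0.152 for the 3 genes, so none passed. At 96 h treatment, slide and scan day cannot be told apart.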

How the results depend on the processing

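For vit C against UT, 0 members were called at 8, 24 and 48 h under every alternative run, and at 96 h P4HA1 (1 of 6) was called with array weights. Array weights and the unadjusted p each gave 2 members with an effect that differs between times. The methods' t-test called 0 members in UT cells at 48 h and at 96 h against 8 h and 0 in vit C-treated cells at 24 h. That last count was also 0 with the fit of 2 groups, normexp, slide as a fixed block and the replicate block. With no fold limit the counts were 2 (UT cells, 48 h), 3 (UT cells, 96 h) and 3 (vit C-treated cells, 48 h). Slide as a fixed block left 2 members that differ over time in UT cells, and it could not be run for vit C at 96 h. Leaving out 1 array gave 1 to 2 calls in UT cells at 96 h, 0 to 1 for vit C against UT at 96 h, 0 to 1 for effects that differ between times, 3 to 4 members that differ over time in UT cells and 2 to 5 in vit C-treated cells, 0 to 1 calls in vit C-treated cells at 24 h and 2 to 3 at 96 h. The lowest of these, 2 members over time in vit C-treated cells, came without vit C 96 h replicate 2.

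Signs turned for the following values. Against 8 h, quantile normalization gave -0.026 for P4HB and -0.035 for PLOD3 in UT cells at 24 h, normexp gave -0.0014 for PLOD1 in UT cells at 96 h, PLOD3 in vit C-treated cells at 24 h was 0.013 with normexp and 0.0024 with array weights, and P4HA2 in vit C-treated cells at 96 h was -0.35 with the mean of all probes. For vit C against UT, P4HA2 at 24 h was 0.012 with normexp and 0.0043 with array weights. At 8 h it was 0.010 with normexp and 0.016 with the percentile over probes well above background on all arrays. The mean of all probes gave 0.013 for P4HA2 at 8 h and -0.038 on average over times. P4HB at 96 h was 0.027 with quantile normalization. Slide as a fixed block gave 0.88, 0.70 and 0.91 for PLOD1 at 8, 24 and 48 h and 0.031 for PLOD3 at 8 h. PLOD1 at 96 h was -0.53 with array weights and -0.13 with the replicate block, which gave 0.043 at 8 h. Without 1 array, against 8 h in UT cells, P4HB ran from -0.10 to 0.22 and PLOD3 from -0.10 to 0.12 at 24 h, P4HA1 from -0.020 to 0.35 at 48 h and -0.10 to 0.54 at 96 h, and PLOD1 from -0.31 to 0.88 at 96 h. In vit C-treated cells PLOD1 ran from -0.080 to 0.55 and PLOD3 from -0.17 to 0.11 at 24 h, and P4HA2 from -0.10 to 0.15 at 96 h. For vit C against UT, P4HA2 ran from -0.081 to 0.087, PLOD1 from -0.62 to 0.012 and PLOD2 from -0.52 to 0.20 at 24 h, P4HA2 from -0.069 to 0.010 and P4HB from -0.29 to 0.028 at 8 h, and PLOD1 from -0.73 to 0.47 at 96 h. Same-numbered arrays had deviations correlated from -0.34 to 0.13, so the numbers were not taken as pairs.

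For the 7 lists, alternatives chosen after seeing the data gave these counts. At 8 h (1 called) array weights gave 3, the dim filter, the trend, the mean of probes, removal of opposing probes and quantile normalization 2 each, the replicate block, the slide block and the t-test 0, and the unadjusted p 4. At 24 h (3) the fit of 2 groups gave 1, the slide block and the t-test 0 and the unadjusted p 5. At 48 h (6) array weights gave 11, the fit of 2 groups and the t-test 0, the slide block 2 and the unadjusted p 13. At 96 h (10) array weights gave 16, and the fit of 2 groups and the t-test 0. Leaving out 1 array gave 0 to 1, 2 to 3, 2 to 5 and 6 to 14.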
